A study of Arabidopsis thaliana with 18 samples.

Results

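The genotypes were compared for how their transcript levels moved between 1 h and 3 h on jasmonic acid (JA). The measure is a difference of shifts: the mean log2(FPKM + 1) at 3 h less that at 1 h in the Arabidopsis mutant ecap-2, minus the same shift in wild type (WT). It used 12 of the series' 18 libraries, in 4 groups of 3: ecap-2 after 3 h and after 1 h on 50 µM JA, and WT (Col in the sample descriptions) after 3 h and after 1 h on 50 µM JA. All 4 groups were whole seedlings aged 6 days, raised on half-strength MS plates with 1% sucrose and moved to JA plates, so the transfer itself was common to them. The 3 ecap-2 and 3 WT libraries of 0 h, labelled untreated, entered the fit only as further estimates of the spread. They also counted in the filter that chose which genes were tested. A positive difference means that the shift was higher in ecap-2, and a negative one that it was lower. Seedlings moved to plates without JA for 1 or 3 h were not analysed here, so within a genotype JA and the passing of time cannot be told apart. The labels name 1 mutant allele and leave unsaid whether replicates were grown apart; a p-value here therefore measures the spread between libraries, and that spread may be technical.

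JA is a plant hormone of wounding, defence and pigment formation. Its active conjugate binds the receptor COI1, which sends JAZ repressors to degradation and frees transcription factors such as MYC2. JAZ proteins silence those factors by recruiting co-repressors of the TOPLESS family, either through the adaptor NINJA or, per the title of the series, through ECAP, which ties them to TPR2. Bound factors include the MYB and bHLH proteins that switch on anthocyanin enzymes, and JA also induces the JAZ genes themselves, so that a response fades as repressors are rebuilt.

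Each library had 1689 to 2073 of 22209 listed genes at 0. Read depth is unknown, and depth relative to WT 3 h replicate 2, estimated approximately from genes of low FPKM, ran from 0.669 in WT 1 h replicate 2 to 1.27 in ecap-2 1 h replicate 3. FPKM is a count of fragments scaled to transcript length and library size. Its sum per library was 853858 to 912834 in ecap-2 at 3 h and 778106 to 788293 in ecap-2 at 1 h, against 746650 to 765209 in WT at 3 h and 701785 to 751424 in WT at 1 h. The summed level of 13 root markers was 254 to 303 FPKM in ecap-2 at 3 h and 231 to 258 FPKM in ecap-2 at 1 h, against 159 to 187 FPKM in WT at 3 h and 183 to 220 FPKM in WT at 1 h. The summed level of 13 photosynthesis genes, which mark green shoots, was 62478 to 69283 FPKM in ecap-2 at 3 h and 53519 to 55462 FPKM in ecap-2 at 1 h, against 47192 to 49524 FPKM in WT at 3 h and 42316 to 49080 FPKM in WT at 1 h. Of these markers 0 were at 0 in all 12 libraries. In such samples fewer cells of a type and less RNA per cell cannot be told apart, and the part of either marker sum in the results below was not tested.

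The locus taken here as ECAP, AT3G58110, was low in ecap-2 and moved little in either genotype. It measured 2.62, 2.34 and 2.72 FPKM in ecap-2 at 3 h, against 2.48, 2.48 and 2.67 FPKM in ecap-2 at 1 h. In WT it held 12.3, 12.8 and 13.8 FPKM at 3 h, against 14.1, 14.9 and 14.9 FPKM at 1 h. Every ecap-2 library lay below every WT library. The difference of shifts was 0.17 ± 0.11 (SE, adjusted p = 0.37).

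Over all genes, 256 had a higher and 319 a lower shift in ecap-2 (limma, Benjamini-Hochberg adjusted p under 0.05), together 575 of 17835 tested genes or 3.22%. The higher ones were 1.44% and the lower ones 1.79% of the tested genes. Most differences were small: the median size over the called genes was 0.579 on the log2 scale, and 48 genes, 24 in each direction, differed by at least 1. In ecap-2 itself 3726 genes (20.9%) rose and 3517 (19.7%) fell between 1 h and 3 h, against 2579 (14.5%) and 2585 (14.5%) in WT. Of the 256 genes with a higher shift, 115 rose in ecap-2 and were not called in WT, 70 fell in WT and were not called in ecap-2, 32 rose in both genotypes, 23 rose in ecap-2 and fell in WT, and 16 fell in both. Of the 319 with a lower shift, 204 fell in ecap-2 and were not called in WT, 41 rose in WT and were not called in ecap-2, 35 fell in ecap-2 and rose in WT, 27 fell in both and 12 rose in both. A gene is said below not to overlap where the 3 h values of the genotypes, each less its own 1 h mean, lie apart; this held for all 575 called genes and for 46.8% of all tested genes.

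**Figure D1:**
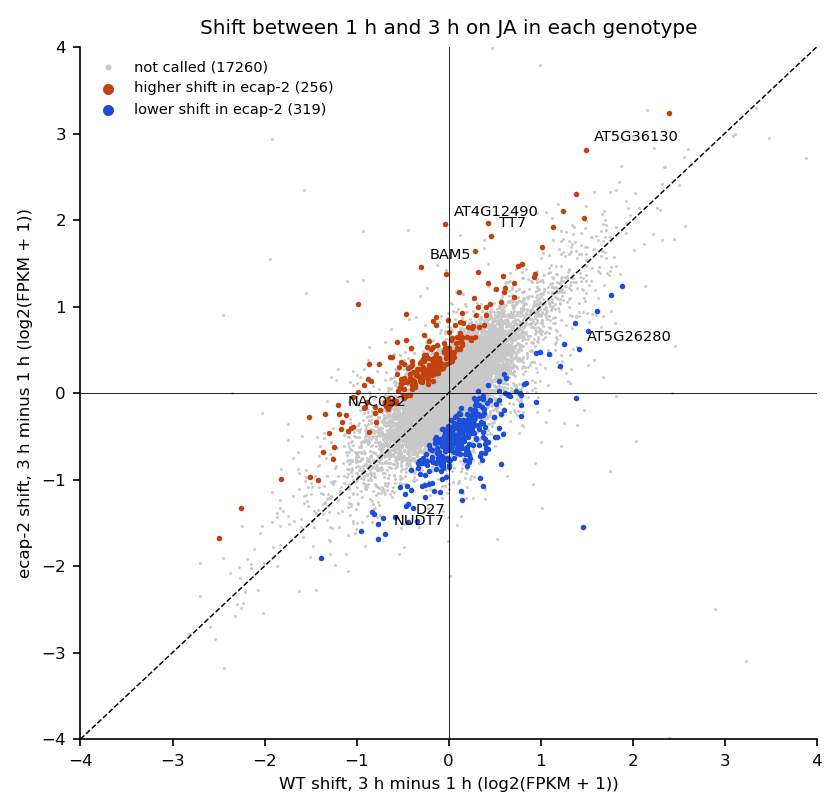
Each point is 1 of 17835 tested genes, placed by its shift between 1 h and 3 h on JA in WT (x axis) and in ecap-2 (y axis), both on the log2(FPKM + 1) scale; the dashed line marks equal shifts and 3 genes lie outside the axes. The 256 genes with a higher shift in ecap-2 lie above the line and the 319 with a lower shift below it, many of them close to the vertical axis, where the WT shift is near 0.

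The number of called genes rested heavily on single libraries. Without ecap-2 3 h replicate 1, 2 or 3 the higher and lower counts were 35 and 58, 26 and 44, and 661 and 627. Without ecap-2 1 h replicate 1, 2 or 3 they were 230 and 294, 71 and 118, and 39 and 57. Leaving out WT 3 h replicate 1, 2 or 3 gave 44 and 81, 68 and 109, and 60 and 83. Leaving out WT 1 h replicate 1, 2 or 3 gave 292 and 208, 140 and 248, and 129 and 181. In all 12 of these fits 56 genes, 21 higher and 35 lower, kept their call, and all 56 also kept it after correction for GC content and length. The genes named from them are marked below as kept throughout.

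**Figure D2:**
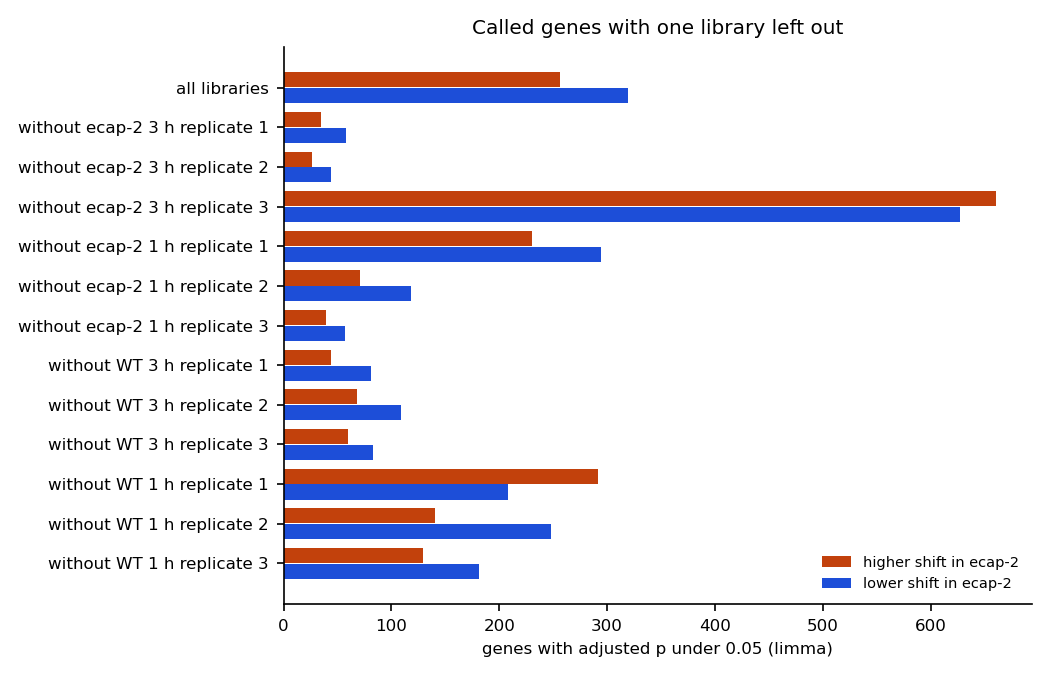
Bars give the number of genes with an adjusted p under 0.05 (x axis, limma) for the difference of shifts, with all libraries at the top and with 1 of the 12 libraries left out in each row below; the upper bar of a pair is genes with a higher and the lower bar genes with a lower shift in ecap-2. The total was 70 without ecap-2 3 h replicate 2 and 1288 without ecap-2 3 h replicate 3.

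Scaling and base composition moved with the split of the calls. With every library rescaled to a common total, 119 genes had a higher and 988 a lower shift, so that 10.7% of the calls were higher in place of 44.5%. That scaling set the median difference of all tested genes at -0.10, against 0.02 as reported. Spliced GC content had a median of 42.6% over the genes with a higher shift, 39.5% over those with a lower shift and 41.2% over all tested genes. In the lowest of 10 equal groups of genes by GC content the median difference was -0.08, with 17 genes higher and 70 lower, while in the highest it was 0.21, with 70 higher and 2 lower. The median level of the highest group less that of the lowest, taken per library against the mean of all libraries, was 0.345, 0.305 and 0.221 in ecap-2 at 3 h and 0.149, 0.115 and 0.0746 in ecap-2 at 1 h. In WT it was -0.235, -0.273 and -0.274 at 3 h and -0.249, -0.0538 and -0.160 at 1 h. With each library corrected for GC content and spliced length, 197 genes were called higher and 229 lower, and 344 of the 575 calls were kept. List medians moved as well: of 39 gene lists, 7 changed sign and 16 others moved by over 1.5 times under that correction, and 8 and 20 did so with the common total. Of the genes named below, the calls of ELF4-L4, JAZ4, CYP81F4, CYP81F3, CYP81F1, AT2G31790, MDAR3, EDS1, NPR1, ATMG01120 and WRKY47 were lost after the correction for GC content and length. With the common total CHIL, CYP81F3, CYP81F1, AT2G31790, MDAR3, NPR1, ARR4, ATMG01120 and WRKY47 lost theirs. Quantile normalization ended the calls of JAZ4, CHIL, AT2G31790, MDAR3, NPR1 and ARR4, and a pseudocount of 0.1 those of AT4G12500, AT5G36130, PEN3, ALD1, TPS04, ELF4-L4, CYP81F1, AT2G31790, NPR1, WOX5, WRKY72 and WRKY47.

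The called genes also differed between the genotypes before JA, in the 0 h libraries that the contrast does not use. Of the 319 genes with a lower shift, 269 (84.3%) were lower in ecap-2 at 0 h, with a median difference of -0.36. Of the 256 with a higher shift, 172 (67.2%) were higher in ecap-2 at 0 h, with a median of 0.17. Over all tested genes 50.1% were lower in ecap-2 at 0 h. These are descriptions over genes, which share libraries, and carry no test. The 0 h values were not corrected for GC content. Its median was 42.6% over the higher, 39.5% over the lower and 41.2% over all tested genes, and its part in this split was not tested. Median spliced lengths were 1596, 1536 and 1759 bases and median exon counts 3, 5 and 4 for the higher, the lower and all tested genes. Chromosome 1 held 26.6% of the higher, 32.9% of the lower and 26.2% of all tested genes.

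**Figure D3:**
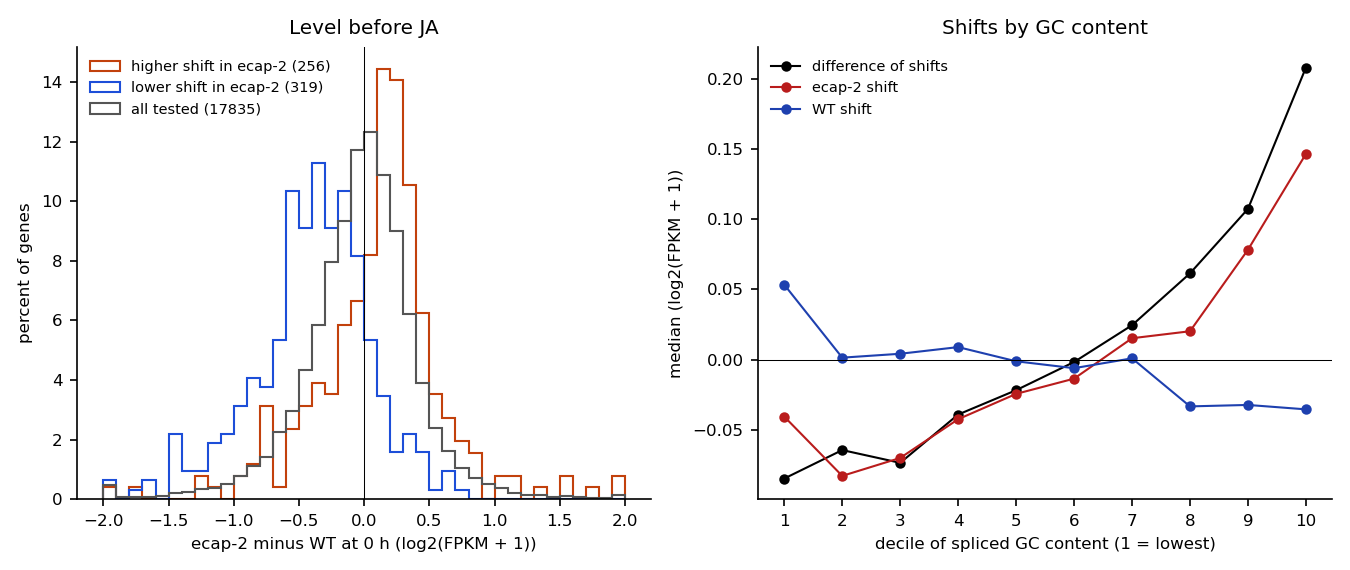
Left, percent of genes (y axis) by the ecap-2 minus WT difference at 0 h (x axis, log2(FPKM + 1), values beyond 2 placed in the end bins), for genes with a higher shift, genes with a lower shift and all tested genes; the lower-shift genes centre on -0.36. Right, median shift of each genotype and median difference of shifts (y axis, log2(FPKM + 1)) by decile of spliced GC content (x axis), where the difference runs from -0.08 in the lowest to 0.21 in the highest decile.

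The largest called higher shift outside the organelle genomes belonged to AT4G12490 (chromosome 4, 7409621 to 7410406, - strand), which encodes a lipid-transfer protein of the EARLI1 cluster, a tandem group linked to cold and systemic defence. It measured 7.22, 11.2 and 7.61 FPKM in ecap-2 at 3 h, against 1.197, 1.31 and 1.92 FPKM in ecap-2 at 1 h. WT libraries held 0, 0.067 and 0 FPKM at 3 h, against 0, 0 and 0.153 FPKM at 1 h. The gene was thus at or near 0 in all 6 WT libraries, and every ecap-2 3 h library lay above every ecap-2 1 h library. The difference was 1.99 ± 0.24 (SE, adjusted p = 0.0027) and was kept throughout. Its neighbour AT4G12500 (chromosome 4, 7413990 to 7414955, - strand) encodes a protein of the same family. It measured 6.91, 7.51 and 8.41 FPKM in ecap-2 at 3 h, against 1.196, 0.734 and 1.80 FPKM in ecap-2 at 1 h. In WT the values were 0.471, 0.623 and 0.470 FPKM at 3 h, against 0.167, 0.158 and 0.0642 FPKM at 1 h. That difference was 1.53 ± 0.23 (adjusted p = 0.0078), also kept throughout. The other two genes of the cluster list, EARLI1 (0.22, adjusted p = 0.56) and AZI1 (0.13, adjusted p = 0.72), were not called, and reads could be split between such similar genes.

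The 250 bases upstream of the annotated start of the transcription factor gene NAC032, described further below (TAIR10.1, chr1:29099589-29099838, + strand), are shown because they hold the G-box CACGTG, in capitals, a palindrome that MYC2 is known to bind and so the same on both strands.
NAC032: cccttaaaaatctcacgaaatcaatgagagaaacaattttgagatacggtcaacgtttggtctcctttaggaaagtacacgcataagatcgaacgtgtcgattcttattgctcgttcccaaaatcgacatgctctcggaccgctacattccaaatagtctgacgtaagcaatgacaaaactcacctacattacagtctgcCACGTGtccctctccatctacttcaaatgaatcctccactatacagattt
Among 250-base windows, 22 of 254 genes with a higher shift (8.66%) and 26 of 319 with a lower shift (8.15%) held that motif, against 1332 of 17790 tested genes (7.49%), so the shares lay close together. The windows take the annotated transcript start as given, and the sequence is from RefSeq.

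Among the 13 early phenylpropanoid and flavonoid and the 12 late anthocyanin genes tested, 4 had a called higher shift in ecap-2 and 0 a lower one. Over all tested genes 1.44% had a higher and 1.79% a lower shift. TT7, the flavonoid 3′-hydroxylase (chromosome 5, 2560328 to 2563137, + strand), measured 16.0, 19.3 and 12.5 FPKM in ecap-2 at 3 h, against 4.36, 3.73 and 3.15 FPKM in ecap-2 at 1 h. WT libraries held 6.06, 7.73 and 4.18 FPKM at 3 h, against 4.20, 3.98 and 3.75 FPKM at 1 h. The 3 ecap-2 3 h libraries stood above the other 9, and both genotypes rose. The difference was 1.36 ± 0.23 (adjusted p = 0.014), kept throughout. UGT78D2, which puts glucose on the 3-position of flavonols and anthocyanidins (chromosome 5, 5607788 to 5609589, - strand), measured 103, 107 and 76.2 FPKM in ecap-2 at 3 h, against 63.4, 49.5 and 38.9 FPKM in ecap-2 at 1 h. The WT libraries had 32.6, 38.2 and 27.5 FPKM at 3 h, against 48.5, 49.3 and 38.6 FPKM at 1 h. It rose in ecap-2 while in WT the 3 h libraries lay below those of 1 h, without a call (adjusted p = 0.11). The difference of 1.38 ± 0.29 (adjusted p = 0.028) lost its call in 6 of 12 leave-outs, those of WT 3 h replicates 1 and 3, ecap-2 1 h replicates 2 and 3 and ecap-2 3 h replicates 1 and 2 (adjusted p up to 0.08).

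AT1G03495, an acyltransferase of the HXXXD type placed in the late anthocyanin list (chromosome 1, 873166 to 874476, + strand), measured 23.0, 26.2 and 18.9 FPKM in ecap-2 at 3 h, against 11.8, 12.5 and 11.1 FPKM in ecap-2 at 1 h. WT values were 11.7, 13.7 and 10.4 FPKM at 3 h, against 14.2, 13.3 and 11.997 FPKM at 1 h. The ecap-2 3 h libraries lay above all others, which overlapped, and the difference of 1.01 ± 0.18 (adjusted p = 0.015) was kept throughout. CHIL, a chalcone isomerase-like protein that raises flux into flavonoids, measured 68.7, 80.8 and 62.4 FPKM in ecap-2 at 3 h, against 54.2, 41.1 and 47.5 FPKM in ecap-2 at 1 h. WT held 54.9, 68.9 and 50.0 FPKM at 3 h, against 65.5, 59.7 and 62.6 FPKM at 1 h, and the WT groups overlapped. Its difference of 0.68 ± 0.16 (adjusted p = 0.035) ended with a common total and in 8 of 12 leave-outs.

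Of the 12 late anthocyanin genes 2 had a higher shift (UGT78D2 and AT1G03495) and 0 a lower one, all 12 differences were positive, and their median was 0.66, against 0.02 and 9524 positive of 17835 over all tested genes. With a common total the medians were 0.50 for the list and -0.10 for all genes, and after correction for GC content and length 0.63 and 0.02. In ecap-2 9 of the 12 rose between 1 h and 3 h, with a median shift of 1.45, against 6 of 12 in WT, with a median of 0.73; of all tested genes 20.9% rose in ecap-2 and 14.5% in WT. DFR, dihydroflavonol reductase, the entry step to anthocyanidins, averaged 122 ± 13 FPKM in ecap-2 at 3 h and 23.9 ± 4.8 FPKM in ecap-2 at 1 h, against 15.4 ± 4.4 FPKM in WT at 3 h and 4.05 ± 2.1 FPKM in WT at 1 h (SD, n = 3 each). It rose in both genotypes, and the difference of 0.57 ± 0.39 was not called (adjusted p = 0.41). The same held for TT19, the glutathione transferase that carries anthocyanin to the vacuole (0.74 ± 0.47, adjusted p = 0.38), and for LDOX, anthocyanidin synthase (0.49 ± 0.39, adjusted p = 0.48). The decorating enzymes UGT79B1 (1.03 ± 0.30, adjusted p = 0.066), 5MAT (1.00 ± 0.31, adjusted p = 0.079) and AT4G14090 (0.90 ± 0.34, adjusted p = 0.14) came closer to a call. AT4G14090 overlaps an annotated antisense RNA, and whether the authors' counting used strand is not given in the sources used here.

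Of the 13 early phenylpropanoid and flavonoid genes 2 had a higher shift (TT7 and CHIL) and 0 a lower one, with a median of 0.48. That median was 0.38 after correction for GC content and length and 0.34 with a common total. CHS, chalcone synthase (0.69 ± 0.20, adjusted p = 0.072), F3H, flavanone 3-hydroxylase (0.80 ± 0.22, adjusted p = 0.061) and CHI, chalcone isomerase (0.52 ± 0.14, adjusted p = 0.052) were not called. The 11 regulators of anthocyanin had 0 calls, 0 with an unadjusted p under 0.05, and a median of 0.08. PAP1, the MYB activator, averaged 20.1 ± 2.9 FPKM in ecap-2 at 3 h and 29.0 ± 12 FPKM in ecap-2 at 1 h, against 8.33 ± 4.4 FPKM in WT at 3 h and 9.15 ± 3.5 FPKM in WT at 1 h (SD, n = 3 each), a difference of -0.27 ± 0.51 (adjusted p = 0.80). TT8, its bHLH partner, differed by 0.45 ± 0.23 (adjusted p = 0.25). MYBL2, a repressor, rose in both genotypes, with a difference of 0.04 ± 0.45 (adjusted p = 0.97).

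**Figure D4:**
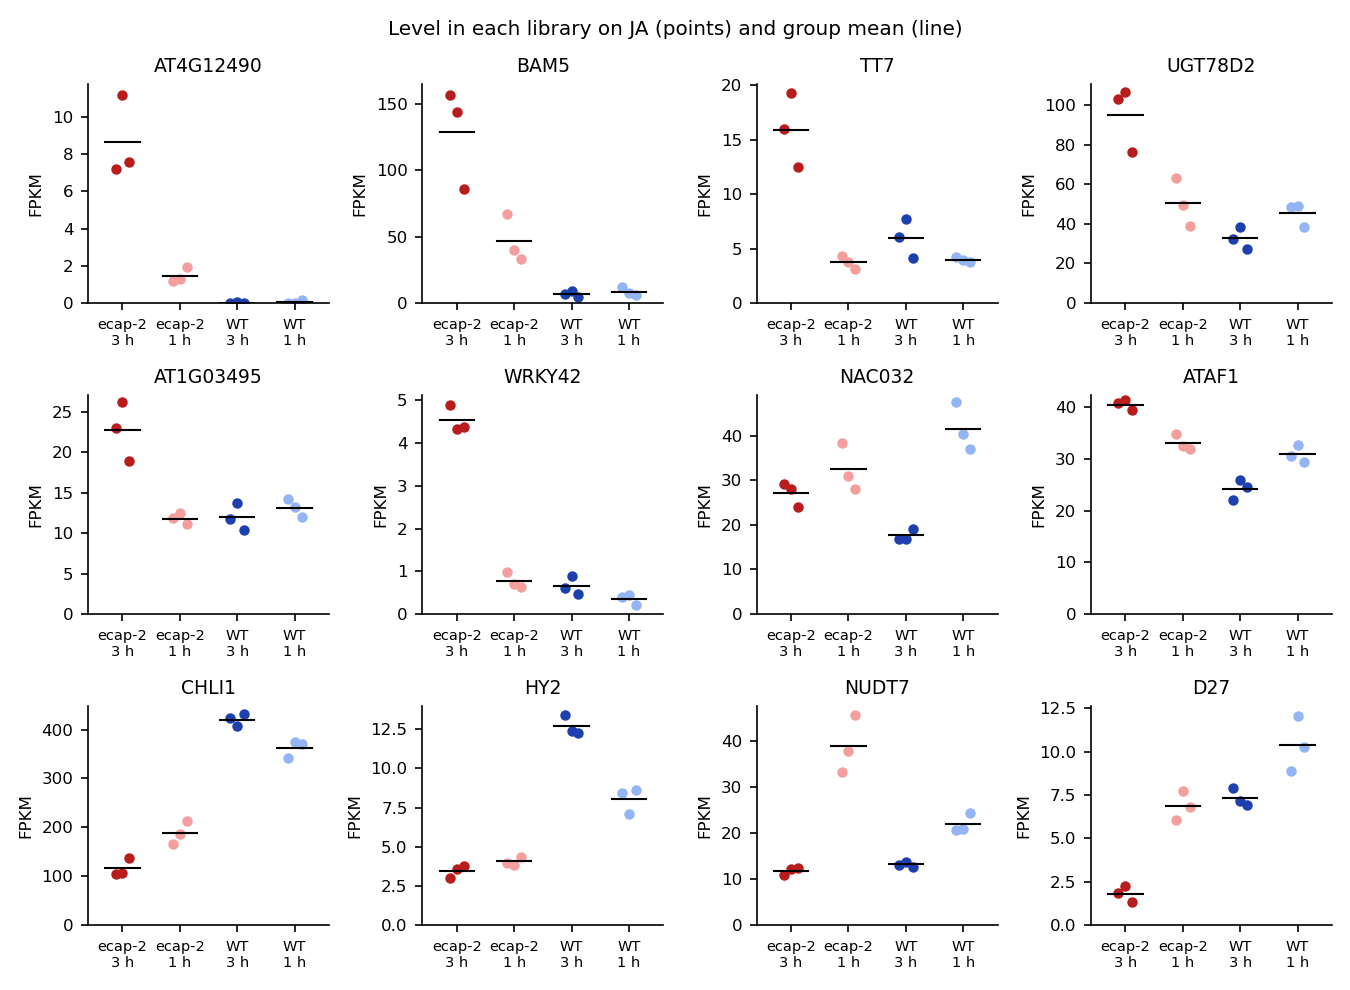
FPKM (y axis, linear from 0) of 12 genes in ecap-2 at 3 h and 1 h and in WT at 3 h and 1 h (x axis); points are libraries and lines are group means, 3 libraries per group. In TT7 the 3 ecap-2 3 h libraries, at 12.5 to 19.3 FPKM, stand above the other 9, while in CHLI1 the ecap-2 3 h libraries, at 105 to 137 FPKM, stand below the other 9.

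Of 52 tested genes in the 5 lists of the JA pathway and its co-repressors 3 were called (5.77%), against 3.22% of all tested genes. Of 13 genes that make JA, 0 were called in either direction, with a median of 0.23, which was 0.19 after correction for GC content and length and 0.09 with a common total. LOX2, a lipoxygenase at the start of the route, rose in both, with 622 ± 78 FPKM in ecap-2 at 3 h and 262 ± 99.6 FPKM in ecap-2 at 1 h, against 428 ± 86 FPKM in WT at 3 h and 181 ± 26 FPKM in WT at 1 h (SD, n = 3 each), a difference of 0.07 ± 0.35 (adjusted p = 0.93). AOS, allene oxide synthase, differed by 0.30 ± 0.19 (adjusted p = 0.35) and OPR3, the reductase that follows it, by 0.40 ± 0.14 (adjusted p = 0.11). Without adjustment, 3 of the 13 had a p under 0.05, as did 3990 (22.4%) of all tested genes.

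Of 9 genes that break down or modify JA, 1 had a higher shift. IAR3, a hydrolase of amino acid conjugates of JA and auxin, measured 140, 143 and 123 FPKM in ecap-2 at 3 h, against 252, 224 and 212 FPKM in ecap-2 at 1 h. Levels in WT were 76.8, 80.3 and 77.0 FPKM at 3 h, against 189, 183 and 191 FPKM at 1 h. The gene fell in both genotypes and less so in ecap-2, by a difference of 0.50 ± 0.11 (adjusted p = 0.031) that was lost in 8 of 12 leave-outs.

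Among 11 JAZ repressor genes 1 had a lower shift. Their median of -0.11 was 0.0033 after correction for GC content and length and -0.25 with a common total. JAZ4 held 4.88, 5.29 and 4.63 FPKM in ecap-2 at 3 h, against 4.17, 5.06 and 5.80 FPKM in ecap-2 at 1 h. In WT the values were 4.20, 5.54 and 4.54 FPKM at 3 h, against 2.56, 2.61 and 2.78 FPKM at 1 h. It rose in WT and was not called in ecap-2, and the WT 1 h libraries lay below the other 9. Its difference of -0.66 ± 0.18 (adjusted p = 0.049) was lost in 11 of 12 leave-outs and after correction for GC content and length. JAZ7 had the largest negative difference of the list, -0.97 ± 0.47, without a call (adjusted p = 0.24). Within the genotypes 7 of the 11 fell in ecap-2 and 8 in WT, with median shifts of -0.46 and -0.44.

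Of 12 receptor and transcription factor genes 1 was called. NAC072 (RD26), a dehydration and abscisic acid (ABA) regulator that JA also induces, measured 9.94, 12.1 and 11.3 FPKM in ecap-2 at 3 h, against 10.6, 9.46 and 13.2 FPKM in ecap-2 at 1 h. In WT it held 11.6, 11.9 and 15.2 FPKM at 3 h, against 26.7, 22.5 and 30.5 FPKM at 1 h. Only the WT 1 h libraries stood apart, above all others, and the gene fell in WT. The difference was 1.00 ± 0.23 (adjusted p = 0.034) and was lost in 8 of 12 leave-outs. MYC2 differed by 0.38 ± 0.18 (adjusted p = 0.23). The 7 co-repressor and adaptor genes had 0 calls, 1 with an unadjusted p under 0.05, among them TPL (0.27 ± 0.09, adjusted p = 0.11) and NINJA (0.04 ± 0.10, adjusted p = 0.85).

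Of 9 JA-induced defence genes 0 had a higher and 1 a lower shift, against 1.44% and 1.79% of all tested genes. TPS04, the geranyllinalool synthase behind a defence volatile, measured 0.192, 0.350 and 0.242 FPKM in ecap-2 at 3 h, against 4.13, 2.56 and 2.65 FPKM in ecap-2 at 1 h. WT libraries held 0.0351, 0.147 and 0.070 FPKM at 3 h, against 0.966, 0.612 and 0.983 FPKM at 1 h. The gene fell to low values in both genotypes, and the ecap-2 1 h libraries were the highest. The difference of -0.92 ± 0.18 (adjusted p = 0.02) ended without ecap-2 3 h replicate 1 (adjusted p = 0.059), the only 1 of the 12 leave-outs to do so, and with a pseudocount of 0.1. The difference was positive in 8 of the 9 members, and the list's median of 0.41 was 0.22 after correction for GC content and length and 0.29 with a common total.

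NAC032 and ATAF1, NAC transcription factors tied to ABA, wounding and senescence, and HAI1, a phosphatase that dampens ABA and osmotic stress signalling, had higher shifts in ecap-2; they were chosen after their values were seen, because they were kept throughout. NAC032 (chromosome 1, 29099839 to 29101759, + strand) measured 29.1, 28.0 and 23.9 FPKM in ecap-2 at 3 h, against 38.4, 30.9 and 28.0 FPKM in ecap-2 at 1 h. The WT libraries had 16.9, 16.8 and 19.1 FPKM at 3 h, against 47.4, 40.2 and 37.0 FPKM at 1 h. WT fell while the ecap-2 times overlapped, a difference of 0.94 ± 0.17 (adjusted p = 0.016). HAI1 held 0.868, 0.722 and 0.929 FPKM in ecap-2 at 3 h, against 1.07, 1.33 and 1.13 FPKM in ecap-2 at 1 h. WT values were 0.789, 0.886 and 0.744 FPKM at 3 h, against 4.70, 3.44 and 2.82 FPKM at 1 h. WT at 1 h stood above every other library, and the difference was 1.10 ± 0.20 (adjusted p = 0.017).

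ATAF1 measured 40.7, 41.3 and 39.5 FPKM in ecap-2 at 3 h, against 34.8, 32.5 and 32.0 FPKM in ecap-2 at 1 h. Levels in WT were 22.1, 26.0 and 24.5 FPKM at 3 h, against 30.5, 32.7 and 29.4 FPKM at 1 h. It rose in ecap-2 and fell in WT, a difference of 0.62 ± 0.09 (adjusted p = 0.0074) that was 0.33 after correction for GC content and length. WRKY42, a factor known for phosphate and root regulation, measured 4.88, 4.34 and 4.39 FPKM in ecap-2 at 3 h, against 0.978, 0.700 and 0.642 FPKM in ecap-2 at 1 h. In WT the values were 0.609, 0.880 and 0.460 FPKM at 3 h, against 0.405, 0.443 and 0.211 FPKM at 1 h. The ecap-2 3 h libraries alone were above 1 FPKM, and the difference of 1.36 ± 0.17 (adjusted p = 0.0027) was kept throughout. Among 46 tested WRKY genes 2 had a higher shift (WRKY42 and WRKY47) and 1 a lower one (WRKY72), with a median of 0.04. The shares over all tested genes were 1.44% and 1.79%.

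BAM5, the main beta-amylase activity of leaves (chromosome 4, 8666334 to 8669526, - strand), measured 157, 144 and 86.2 FPKM in ecap-2 at 3 h, against 67.4, 39.9 and 33.5 FPKM in ecap-2 at 1 h. In WT it held 6.73, 8.82 and 4.70 FPKM at 3 h, against 11.98, 7.81 and 6.04 FPKM at 1 h. It was higher in every ecap-2 library than in any WT library, rose in ecap-2 and was not called in WT. The difference of 1.76 ± 0.40 (adjusted p = 0.035) was lost in 8 of 12 leave-outs, with adjusted p up to 0.092. It was the only call among 5 amylase genes, against 3.22% called of all tested genes. The list's median of 0.31 was 0.22 after correction for GC content and length and 0.18 with a common total.

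A pair of genes close together on chromosome 5 was higher in ecap-2 and kept throughout. AT5G36130, a cytochrome P450 family gene (14209088 to 14209922, - strand), held 28.1, 25.1 and 21.8 FPKM in ecap-2 at 3 h, against 2.67, 2.56 and 2.79 FPKM in ecap-2 at 1 h. WT libraries held 2.75, 3.35 and 2.79 FPKM at 3 h, against 0.311, 0.588 and 0.333 FPKM at 1 h. Both genotypes rose, from a lower level in WT, and the difference was 1.32 ± 0.17 (adjusted p = 0.003). PEN3, here the putative pentacyclic triterpene synthase 3 and not the transporter of that name (14220634 to 14226211, - strand), measured 6.61, 8.04 and 5.46 FPKM in ecap-2 at 3 h, against 2.12, 1.77 and 1.82 FPKM in ecap-2 at 1 h. The WT libraries had 0.340, 0.355 and 0.356 FPKM at 3 h, against 0.0589, 0.0537 and 0.125 FPKM at 1 h, and the difference was 1.07 ± 0.18 (adjusted p = 0.014). On the log2(FPKM + 1) scale the shifts of such low WT values are understated, and with a pseudocount of 0.1 neither difference was called, nor was that of AT4G12500.

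Indole glucosinolates are sulfur-rich defence compounds, and their CYP81F enzymes hydroxylate the indole ring. Of 18 genes of that pathway 3 had a higher shift and 0 a lower one, against 1.44% and 1.79% of all tested genes. The median of 0.25 was 0.14 after correction for GC content and length and 0.11 with a common total. CYP81F4 measured 899, 819 and 648 FPKM in ecap-2 at 3 h, against 297, 298 and 252 FPKM in ecap-2 at 1 h. The WT libraries had 665, 686 and 606 FPKM at 3 h, against 387, 412 and 357 FPKM at 1 h. It rose in both genotypes, from lower values in ecap-2, and the difference was 0.71 ± 0.15 (adjusted p = 0.026). Its neighbours CYP81F3 (0.68 ± 0.16, adjusted p = 0.036) and CYP81F1 (0.51 ± 0.13, adjusted p = 0.047) fell in WT and were not called in ecap-2. All 3 lost their call after correction for GC content and length and in 5 to 11 leave-outs, and reads could be split between these related genes. Of 15 aliphatic glucosinolate genes 1 was called, the glycosyltransferase gene AT2G31790 (0.47 ± 0.13, adjusted p = 0.05), likewise lost after that correction.

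CHLI1, HY2, CLPP3, D27 and SS4, all with products that act in plastids, had lower shifts in ecap-2. They and AT5G26280 were chosen after their values were seen, from the 35 lower genes kept throughout. Others of the 35, such as RPL23AB and PEX19-2, act outside plastids, and the share of plastid products was not counted. In the photosynthesis list, whose products also act in plastids, all 13 differences were positive, with 0 called. CHLI1, a subunit of the magnesium chelatase of chlorophyll synthesis, measured 105, 107 and 137 FPKM in ecap-2 at 3 h, against 165, 186 and 212 FPKM in ecap-2 at 1 h. WT values were 423, 407 and 431 FPKM at 3 h, against 342, 374 and 371 FPKM at 1 h. The mutant fell from a level already below every WT library, and the difference was -0.90 ± 0.15 (adjusted p = 0.014). HY2, which makes the chromophore of phytochrome, held 2.97, 3.58 and 3.77 FPKM in ecap-2 at 3 h, against 3.98, 3.85 and 4.36 FPKM in ecap-2 at 1 h. Levels in WT were 13.4, 12.4 and 12.3 FPKM at 3 h, against 8.45, 7.10 and 8.59 FPKM at 1 h. It rose in WT and was not called in ecap-2, a difference of -0.80 ± 0.14 (adjusted p = 0.014).

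CLPP3, a subunit of the plastid Clp protease, measured 34.6, 35.1 and 42.9 FPKM in ecap-2 at 3 h, against 53.3, 59.8 and 59.9 FPKM in ecap-2 at 1 h. In WT the values were 81.4, 78.5 and 81.4 FPKM at 3 h, against 73.4, 70.8 and 75.8 FPKM at 1 h. It fell in ecap-2, a difference of -0.74 ± 0.12 (adjusted p = 0.014). D27, a carotene isomerase at the start of strigolactone synthesis, held 1.86, 2.25 and 1.30 FPKM in ecap-2 at 3 h, against 6.05, 7.73 and 6.82 FPKM in ecap-2 at 1 h. In WT it held 7.90, 7.17 and 6.89 FPKM at 3 h, against 8.86, 12.1 and 10.3 FPKM at 1 h. Both genotypes fell, ecap-2 further, by -1.05 ± 0.19 (adjusted p = 0.016). SS4, a starch synthase that starts granules, held 14.9, 15.8 and 16.5 FPKM in ecap-2 at 3 h, against 8.55, 8.73 and 8.25 FPKM in ecap-2 at 1 h. WT libraries held 24.3, 24.8 and 25.3 FPKM at 3 h, against 8.19, 9.70 and 9.02 FPKM at 1 h. At 1 h the genotypes overlapped, and both rose, WT further, a difference of -0.56 ± 0.10 (adjusted p = 0.014). AT5G26280, a TRAF-like gene, measured 515, 586 and 633 FPKM in ecap-2 at 3 h, against 397, 413 and 405 FPKM in ecap-2 at 1 h. The WT libraries had 989, 1036 and 924 FPKM at 3 h, against 361, 399.99 and 344 FPKM at 1 h. It also rose in both and further in WT, with a difference of -0.91 ± 0.13 (adjusted p = 0.0055).

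Immunity genes moved in both directions. ALD1, which makes the pipecolic acid precursor of systemic resistance, held 0.723, 0.577 and 0.594 FPKM in ecap-2 at 3 h, against 3.06, 2.46 and 2.26 FPKM in ecap-2 at 1 h. The WT libraries had 0.0263, 0 and 0.0262 FPKM at 3 h, against 0.188, 0.0356 and 0.200 FPKM at 1 h. It was low in every WT library and fell in ecap-2, a difference of -0.97 ± 0.15 (adjusted p = 0.0097) that was kept in every leave-out and ended with a pseudocount of 0.1. NUDT7, a hydrolase that restrains EDS1-dependent immunity and was chosen after its values were seen, measured 10.9, 12.3 and 12.5 FPKM in ecap-2 at 3 h, against 33.2, 37.9 and 45.9 FPKM in ecap-2 at 1 h. WT values were 13.1, 13.8 and 12.7 FPKM at 3 h, against 20.7, 20.9 and 24.4 FPKM at 1 h. Both genotypes fell, the ecap-2 libraries lying above those of WT at 1 h and just below them at 3 h, and the difference was -0.94 ± 0.16 (adjusted p = 0.014). EDS1 itself, a lipase-like immune regulator, differed by -0.57 ± 0.14 (adjusted p = 0.037) and NPR1, the salicylic acid receptor, by 0.40 ± 0.11 (adjusted p = 0.048); both were lost in 9 or 10 leave-outs and after correction for GC content and length. Of 7 salicylic acid genes 1 thus had a higher and 2 a lower shift, with a median of -0.12. The shares over all tested genes were 1.44% and 1.79%.

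Of 14 iron-deficiency genes 0 had a higher and 2 a lower shift, both of them bHLH regulators. The shares over all tested genes were 1.44% and 1.79%. PYE, which restrains the iron response in the root, measured 81.0, 81.3 and 92.6 FPKM in ecap-2 at 3 h, against 108, 108 and 116 FPKM in ecap-2 at 1 h. Levels in WT were 165, 157 and 162 FPKM at 3 h, against 145, 136 and 151 FPKM at 1 h. The order of the groups had no overlap, and the difference of -0.54 ± 0.09 (adjusted p = 0.014) was kept throughout. FIT, which activates iron uptake, held 4.27, 3.53 and 3.23 FPKM in ecap-2 at 3 h, against 10.6, 10.8 and 9.52 FPKM in ecap-2 at 1 h. In WT the values were 10.04, 7.99 and 8.65 FPKM at 3 h, against 12.4, 14.2 and 10.8 FPKM at 1 h. It fell in both, further in ecap-2, by -0.84 ± 0.17 (adjusted p = 0.021), which ended without WT 3 h replicate 1 or ecap-2 3 h replicate 2 (adjusted p up to 0.06). The uptake genes IRT1 (0.92, adjusted p = 0.35) and FRO2 (0.11, adjusted p = 0.86) were not called, and the list's median was -0.03.

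Of the 10 largest lower shifts among called genes with a group mean of at least 5 FPKM, each was lost in at least 6 leave-outs except that of AT4G16447, which was kept throughout. SCL1, a GRAS regulator, measured 3.18, 2.57 and 3.45 FPKM in ecap-2 at 3 h, against 7.36, 6.87 and 8.53 FPKM in ecap-2 at 1 h. In WT it held 14.0, 13.2 and 12.7 FPKM at 3 h, against 11.6, 8.58 and 10.14 FPKM at 1 h, a difference of -1.46 ± 0.33 (adjusted p = 0.034). It fell in ecap-2 and was not called in WT. AHP2, a phosphotransfer protein of cytokinin signalling, differed by -1.14 ± 0.26 (adjusted p = 0.033) with the same pattern, and ARR4, a type-A response regulator of that pathway and the only call among 6, by 0.46 ± 0.10 in the other direction (adjusted p = 0.03). ATG8G, an autophagy protein (-1.32 ± 0.30, adjusted p = 0.033), and PAPP2C, a phosphatase that acts with phytochrome (-1.09 ± 0.24, adjusted p = 0.03), likewise fell in ecap-2 and were not called in WT. ELF4-L4, a relative of a clock protein, was the only one of these to lose its call after correction for GC content and length (-0.96, adjusted p = 0.054).

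Lists of other processes held 0 or 1 call each. Over all tested genes 3.22% were called, a share at which lists this short would often hold 0. The morning and the day and evening clock lists had 0 of 8 and 0 of 10 called, with medians of 0.05 and 0.13, although 7 of the 8 morning genes fell in each genotype and 9 of the day and evening genes rose in ecap-2 and 7 in WT. LHY, a morning factor, averaged 13.1 ± 0.63 FPKM in ecap-2 at 3 h and 75.3 ± 3.0 FPKM in ecap-2 at 1 h, against 17.2 ± 1.6 FPKM in WT at 3 h and 88.4 ± 12 FPKM in WT at 1 h (SD, n = 3 each), a difference of -0.15 ± 0.15 (adjusted p = 0.61). Heat shock (0 of 6, median 0.19), light response (0 of 7, median 0.53) and cold regulon genes (0 of 7, median 0.59) were not called either, nor were sulfate assimilation (0 of 14, median -0.02), tryptophan (0 of 6, median 0.07) and ER body genes (0 of 6, median -0.11). All 7 cold regulon differences were positive, and their median was 0.66 after correction for GC content and length and 0.45 with a common total. Touch, auxin, gibberellin and dark-inducible lists had 0 calls in 12, 9, 7 and 10 genes, with medians of 0.02, -0.02, 0.16 and -0.03. Tau glutathione transferases had 0 calls in 6 genes (median -0.12). Before adjustment a p under 0.05 (limma) was reached by 22.4% of all tested genes. Among the clock genes it was reached by 1 of 8 morning and 4 of 10 day and evening members. The counts were 1 of 6 heat shock, 2 of 7 light response, 3 of 7 cold regulon and 2 of 14 sulfate assimilation genes. They were 1 of 6 tryptophan, 3 of 6 ER body, 2 of 12 touch and 5 of 9 auxin genes. For gibberellin, dark-inducible and tau glutathione transferase genes they were 0 of 7, 1 of 10 and 0 of 6. Ascorbate genes had 1 of 9, MDAR3, a monodehydroascorbate reductase (0.54 ± 0.14, adjusted p = 0.042), lost after correction for GC content and length and in 10 leave-outs.

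Lists that mark cell types and libraries were read in the same way. Photosynthesis genes had 0 of 13 called, but all 13 differences were positive, from 0.17 to 0.45 with a median of 0.27, which was 0.12 after correction for GC content and length and 0.13 with a common total. Cell cycle genes had 0 of 10 called (median -0.11) and stomatal lineage genes 0 of 4 (median -0.01). The 7 reference genes had 0 calls and a median of 0.18, which was 0.03 after correction for GC content and length and 0.04 with a common total. Before adjustment 22.4% of all tested genes had a p under 0.05 (limma), and 3.22% were called. Without adjustment it was reached by 8 of 13 photosynthesis, 3 of 10 cell cycle, 0 of 4 stomatal lineage and 0 of 7 reference genes. The same held for 6 of 12 root markers, 2 of 8 seed storage, 7 of 28 plastid-encoded and 5 of 16 mitochondrial genes. Root markers had 10 positive and 2 negative differences. Their median of 0.32 was 0.16 after correction for GC content and length and 0.19 with a common total. Of 12 root markers 1 was called: WOX5, a factor of the root stem cell niche, held 0.505, 0.361 and 0.373 FPKM in ecap-2 at 3 h, against 0.968, 1.02 and 0.846 FPKM in ecap-2 at 1 h. WT libraries held 0.852, 1.47 and 1.10 FPKM at 3 h, against 4.14, 4.00 and 4.54 FPKM at 1 h. Only WT at 1 h was above 2 FPKM, and the difference of 0.83 ± 0.19 (adjusted p = 0.03) was lost in 7 leave-outs. Of 8 seed storage genes SESA5 had a lower shift (-3.002 ± 0.64, adjusted p = 0.03, lost in 7 leave-outs) and all 8 differences were negative (median -1.84); the summed level of the list was 2.28 to 44.4 FPKM in ecap-2 at 3 h and 19.0 to 31.4 FPKM in ecap-2 at 1 h, against 7.36 to 55.6 FPKM in WT at 3 h and 1.17 to 6.50 FPKM in WT at 1 h. Of 28 plastid-encoded genes 1 was called, ATCG00420 (2.01 ± 0.47, adjusted p = 0.038), and of 16 mitochondrial ones 1, ATMG01120 (1.08 ± 0.29, adjusted p = 0.05), with list medians of 0.84 and 0.72; the summed plastid level varied widely within groups, 753 to 4248 FPKM in ecap-2 at 3 h and 455 to 1612 FPKM in ecap-2 at 1 h, against 940 to 2976 FPKM in WT at 3 h and 1475 to 2900 FPKM in WT at 1 h.

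**Figure D5:**
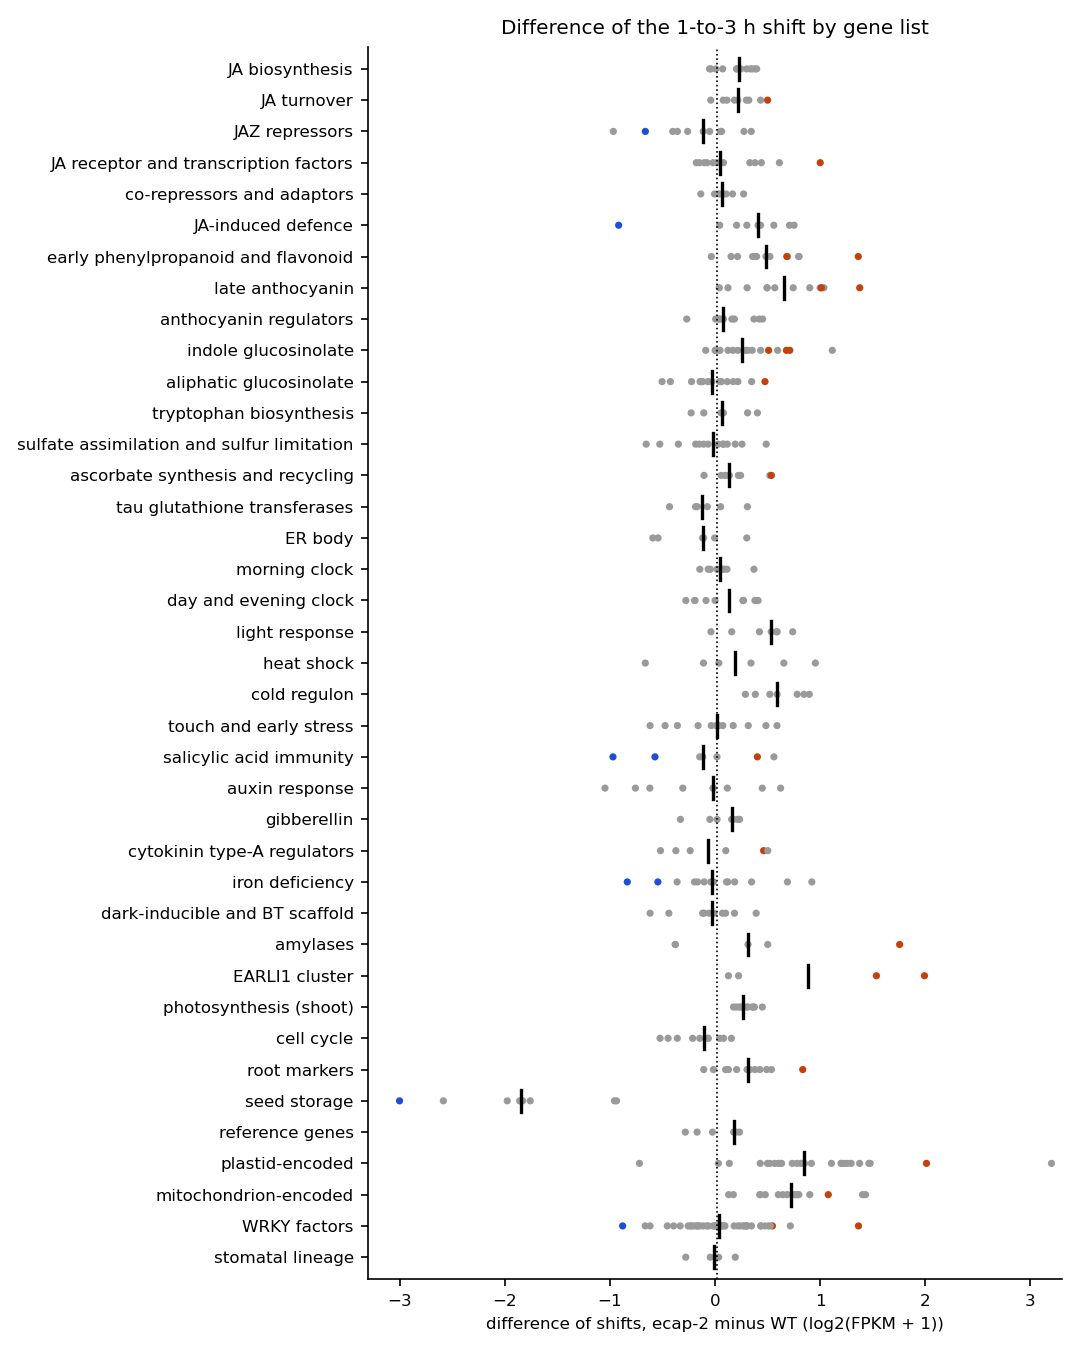
Each point is the difference of shifts, ecap-2 minus WT, of 1 tested list member (x axis, log2(FPKM + 1)), by gene list (y axis); coloured points passed an adjusted p under 0.05, upright bars are list medians, and the dotted line is the median of all tested genes, 0.02. All 12 late anthocyanin genes and all 13 photosynthesis genes lie right of 0, and all 8 seed storage genes left of it. All 7 cold regulon, 16 mitochondrion-encoded and 4 EARLI1 cluster genes also lie right of 0. A total of 1 plastid-encoded gene lies beyond the axis and is drawn at its edge.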

How the data were processed

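RNA sequencing values of 18 libraries were used, 3 for each of 6 groups taken from the labels' genotype and time. The deposited tables hold FPKM per gene, 1 table per library, per the file headers; the authors used TopHat2, Cufflinks and the TAIR10 genome, per the submitters' processing notes, and versions are not given in the sources used here. The depth behind an FPKM is unknown, so no counting intervals are given.

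A gene was tested if 3 or more libraries held it at 1 FPKM or above, which kept 17835 of 22209 genes (80.3%). On log2(FPKM + 1), limma 3.58.1 (R 4.3.3, statmod 1.5.0) fitted 6 group means to 18 libraries with trended, robust empirical Bayes moderation (12 residual and a median of 4.56 prior degrees of freedom). Tests are two-sided with p-values Benjamini-Hochberg adjusted over all tested genes at 0.05 in each of 3 comparisons. On simulated data of 17835 genes, 200 of them changed in each of 5 rounds, the test of the difference of shifts recovered 38.2% of genes with a log2 difference of 0.5 and 81% of those with 1, with 5.85% of calls false. The simulated noise was normal and independent between genes and libraries. Deviations that many genes of a library share, such as the GC trends, were not simulated, so these shares may not hold for the real data.

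The members and lists were chosen with earlier results of these data known. The 39 lists name 530 genes; 509 appear in the tables and 423 passed the filter, and those outside the tables were not analysed here. Named by rule were AT3G58110, taken as ECAP from general knowledge, the 10 largest differences each way among called, non-overlapping genes with a group mean of at least 5 FPKM, and per list up to 4 called members, or else the 2 with the highest mean; any late anthocyanin, anthocyanin regulator or JAZ gene could be named. Other uncalled genes, and genes said to be chosen after their values were seen, lie outside that rule.

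Names, coordinates, GC content and upstream bases come from RefSeq TAIR10.1, to which 22122 gene identifiers matched. Some upstream sequences are not reported here. Alternatives were pseudocounts of 0.1 and 5, every gene above 0 or genes averaging 5 FPKM, a common total, quantile and trimmed mean scaling (share of 0.3), plain empirical Bayes, only 12 libraries, a replicate block, library weights, a 2-fold minimum, a spline correction for GC content and transcript length (5 degrees of freedom each), that correction with the block, nuclear genes only, and leaving out each of the 12 libraries. Python 3.11.15 with matplotlib 3.10.9 drew the figures.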

Additional observations from a re-analysis of the deposited data

Results flagged for a closer look

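The genotypes differed in their 1-to-3 h shift by a test of the difference itself (limma, adjusted p under 0.05), for 256 genes with a higher and 319 with a lower shift in ecap-2. Each called gene named in the report is repeated here with its difference on the log2(FPKM + 1) scale, and no explanation was weighed.

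Kept in all 12 leave-outs with a higher shift in ecap-2 were AT4G12490 (1.99), AT4G12500 (1.53), WRKY42 (1.36), TT7 (1.36), AT5G36130 (1.32), HAI1 (1.10), PEN3 (1.07), AT1G03495 (1.01), NAC032 (0.94) and ATAF1 (0.62). Kept in all 12 with a lower shift were AT4G16447 (-1.14), D27 (-1.05), ALD1 (-0.97), NUDT7 (-0.94), AT5G26280 (-0.91), CHLI1 (-0.90), HY2 (-0.80), CLPP3 (-0.74), SS4 (-0.56) and PYE (-0.54).

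The remaining calls were lost with at least 1 library left out. Without ecap-2 3 h replicate 2 or 1, 32 and 31 of the 53 named calls were lost, against 2 without ecap-2 3 h replicate 3. Without ecap-2 1 h replicate 1, 2 or 3 the numbers lost were 6, 28 and 29, without WT 3 h replicate 1, 2 or 3 they were 29, 24 and 30, and without WT 1 h replicate 1, 2 or 3 they were 14, 20 and 22. Higher shifts in ecap-2 lost in this way were those of ATCG00420 (2.01), BAM5 (1.76), UGT78D2 (1.38), AT3G61920 (1.199), ATMG01120 (1.08), the dirigent-like gene AT3G13650 (1.03), NAC072 (1.00), WOX5 (0.83), CYP81F4 (0.71), CHIL (0.68), CYP81F3 (0.68), WRKY47 (0.55), MDAR3 (0.54), CYP81F1 (0.51), IAR3 (0.50), AT2G31790 (0.47), ARR4 (0.46) and NPR1 (0.40). Lower shifts lost in this way were those of SESA5 (-3.002), SCL1 (-1.46), AT2G05310 (-1.39), ATG8G (-1.32), AT1G47578 (-1.27), AHP2 (-1.14), PAPP2C (-1.09), the pentatricopeptide gene AT1G56690 (-1.08), ELF4-L4 (-1.06), UPB1 (-1.06), TPS04 (-0.92), WRKY72 (-0.88), FIT (-0.84), JAZ4 (-0.66) and EDS1 (-0.57).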

How the results depend on the processing

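Of the 575 called genes, 0 changed sign under any of the alternatives run, over the 495 with a value at a mean of 5 FPKM, the 573 in nuclear genes only and all 575 elsewhere. For many settings that outcome was fixed in advance. Filters, plain empirical Bayes, the 12 libraries alone, the replicate block and nuclear genes only leave a gene's difference unchanged. Leaving out a 3 h library could not reverse it either, since the 3 h values of called genes do not overlap. A common total gave 119 genes with a higher and 988 with a lower difference of shifts, and 1927 rises and 6483 falls in ecap-2. Library weights gave 1643 and 1444, the 12 compared libraries alone gave 506 lower differences, and a change of at least 2-fold left 24 and 24, with 363 and 244 in the ecap-2 shift and 314 and 214 in the WT shift; the last is smaller by construction, and for the others the cause was not tested. With the replicate number as a block 473 and 565 genes were called, including all 575 reported. Deviations of same-numbered libraries correlated weakly (5 of 18 over 0.1, median 0.047, against a median of -0.0145 for other pairs). The labels do not say whether same-numbered libraries belong together, and these correlations cannot settle it. Leaving out 1 library gave 26 to 661 higher and 44 to 627 lower differences, 2982 to 3886 rises and 2802 to 3622 falls in ecap-2, and 1957 to 2574 rises and 1968 to 2651 falls in WT. The other settings kept the counts of the difference within 1.5 times: pseudocounts, filters, quantile and trimmed mean scaling, plain empirical Bayes, correction for GC content and length with or without the block, and nuclear genes only. Over the 53 called genes named, calls were lost 267 times and kept 369 times with 1 library left out, and lost 70 times and kept 655 times under the other settings. With 3 libraries per group and unknown read depth, differences near 0.5 on the log2 scale were often beyond detection.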

Other observations

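Other genes kept their call in all 12 leave-outs and were chosen for mention after their values were seen. Enzymes that remodel cell-wall xyloglucan stood on both sides, with XTH8 at 0.77 ± 0.14 and XTH9 at -0.83 ± 0.15 (log2 difference of shifts ± SE). MYB102, a transcription factor of wounding and osmotic stress, was at 1.24 ± 0.21, MSRB9, a methionine sulfoxide reductase, at 0.66 ± 0.11 and FLA17, a fasciclin-like arabinogalactan protein, at 0.53 ± 0.09. Among plastid proteins, the co-chaperonin gene CHL-CPN10 was at -0.84 ± 0.16 and the ribosomal protein gene PSRP3/1 at -0.61 ± 0.11. AGL20 (SOC1), a MADS factor of flowering, was at -0.90 ± 0.17, RPL23AB, a cytosolic ribosomal protein gene, at -0.74 ± 0.13 and PEX19-2, a peroxisome assembly gene, at -0.73 ± 0.13. AGL20 averaged 0.437 FPKM in ecap-2 at 3 h and 0.145 FPKM at 1 h, against 6.69 and 2.33 FPKM in WT. On the log2(FPKM + 1) scale the shift of such low ecap-2 values is understated. MYB102 was also low in ecap-2, at 0.247 FPKM at 3 h and 0.525 FPKM at 1 h. The calls of AGL20 and MYB102 were not kept under every other setting, since the limit to genes averaging 5 FPKM left both out. Whether their calls were lost elsewhere is not given here.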
